A study of Mus musculus with 3 samples.

Results

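ATRX binding was examined at 39 neuronal activity-regulated genes, taken as the peaks of each list that overlap a gene of this set or the 5 kb on either side of it. The set held 99 of the 112153 peaks of the control list and 86 of the 105674 peaks of the MICAL1-FL list. Its genes were divided by role into 16 early transcription factors, 12 inducible regulators of transcription and signalling, and 11 late effectors. Early and late are names of these groups, and when each gene is induced was not measured here. ATRX, a chromatin remodeller known to place histone H3.3 with its partner DAXX, was profiled by chromatin immunoprecipitation and sequencing in primary neurons from C57BL6/J mouse embryos (E15.5-17.5), kept to DIV14, that is, 14 days in vitro. Lentivirus had been added on day 5, carrying mCherry in the control culture and, in the other, MICAL1-FL, a form of MICAL1, a monooxygenase known to oxidise actin filaments. Neither the promoter that drove the inserts nor the number of embryos per culture is stated in the labels. There was 1 library per condition, so no difference between the lists has a replicate check and none was tested. In a bulk culture, binding in fewer cells and weaker binding in each cell cannot be told apart. Peak names in the MICAL1-FL list carry the prefix TBC_M2 in place of that label, and each value given for it below rests on the label alone. Peak lists hold no expression, so the label of the cells as neurons was not checked against markers.

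Activity-regulated genes are those that a neuron transcribes soon after it fires. Calcium that enters through NMDA receptors and voltage-gated channels starts kinase cascades, and these act on the factors CREB, SRF and MEF2 that already sit at the promoters and enhancers of such genes. The first genes to respond, the immediate early genes, mostly encode transcription factors, and with them come phosphatases and other feedback regulators that end the signal. Later genes encode secreted, synaptic and dendritic proteins that adjust the synapses of the cell.

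The promoters on which the results bear are shown first, as 300-base windows from 250 bases before to 50 bases after the start that RefSeq lists. For 30 of the 39 genes the table held 42 such windows, among them 7 of Bdnf and 5 of Egr2 that partly share bases. Of these, 6 are printed: Atf3, Egr4, Nr4a2 and Btg2, whose windows are overlapped by a peak, and Dusp1 and Npas4, which have peaks of both lists just downstream of the window. Atf3 is shown because a summit lies within its window, and the other 5 were added after their values were seen. Capitals mark the core of the cAMP response element bound by CREB (TGACG or its reverse complement CGTCA), including within the whole element TGACGTCA, and the TATA box TATAAA or its reverse complement.
Atf3 (GRCm38.p6 chr1:191183284-191183583, minus strand): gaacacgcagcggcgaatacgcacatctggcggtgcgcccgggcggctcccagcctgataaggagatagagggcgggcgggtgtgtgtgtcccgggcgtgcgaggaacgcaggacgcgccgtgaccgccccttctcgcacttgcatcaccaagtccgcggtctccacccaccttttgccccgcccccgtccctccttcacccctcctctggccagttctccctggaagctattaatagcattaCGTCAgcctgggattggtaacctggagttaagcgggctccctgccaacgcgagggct
Egr4 (GRCm38.p6 chr6:85513540-85513839, minus strand): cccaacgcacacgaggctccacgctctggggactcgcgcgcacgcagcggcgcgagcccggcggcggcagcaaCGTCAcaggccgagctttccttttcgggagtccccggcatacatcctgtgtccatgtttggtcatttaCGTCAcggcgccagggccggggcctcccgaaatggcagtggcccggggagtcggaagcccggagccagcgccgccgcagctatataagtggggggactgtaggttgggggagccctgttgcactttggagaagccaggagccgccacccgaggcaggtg
Nr4a2 (GRCm38.p6 chr2:57123954-57124253, minus strand): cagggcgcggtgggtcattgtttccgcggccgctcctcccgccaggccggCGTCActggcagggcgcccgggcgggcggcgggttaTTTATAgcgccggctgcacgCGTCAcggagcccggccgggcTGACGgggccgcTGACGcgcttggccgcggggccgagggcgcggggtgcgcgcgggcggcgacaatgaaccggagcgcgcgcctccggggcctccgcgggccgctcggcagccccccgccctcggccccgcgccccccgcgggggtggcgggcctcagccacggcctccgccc
Btg2 (GRCm38.p6 chr1:134079106-134079405, minus strand): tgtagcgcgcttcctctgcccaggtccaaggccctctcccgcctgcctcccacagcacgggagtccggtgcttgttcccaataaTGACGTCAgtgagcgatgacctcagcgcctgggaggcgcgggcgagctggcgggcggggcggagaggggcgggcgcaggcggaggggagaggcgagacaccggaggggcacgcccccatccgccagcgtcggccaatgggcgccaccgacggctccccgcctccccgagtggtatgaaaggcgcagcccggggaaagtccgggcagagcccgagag
Dusp1 (GRCm38.p6 chr17:26508423-26508722, minus strand): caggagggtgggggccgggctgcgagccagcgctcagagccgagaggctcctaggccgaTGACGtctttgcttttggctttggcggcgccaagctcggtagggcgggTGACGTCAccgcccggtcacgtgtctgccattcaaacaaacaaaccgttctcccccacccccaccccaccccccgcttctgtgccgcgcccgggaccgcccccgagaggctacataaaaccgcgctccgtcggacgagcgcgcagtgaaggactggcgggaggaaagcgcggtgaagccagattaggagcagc
Npas4 (GRCm38.p6 chr19:4989922-4990221, minus strand): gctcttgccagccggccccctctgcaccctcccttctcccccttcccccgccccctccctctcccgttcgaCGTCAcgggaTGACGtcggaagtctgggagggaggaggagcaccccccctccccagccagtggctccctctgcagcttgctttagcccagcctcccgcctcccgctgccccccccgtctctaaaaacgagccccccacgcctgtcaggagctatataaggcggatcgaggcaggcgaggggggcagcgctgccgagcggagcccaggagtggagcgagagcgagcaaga

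The whole element TGACGTCA, searched on both strands, is seen above in Btg2 and Dusp1 and was also found in Scg2, Pcsk1 and Plk2. It was present in 5 of the 42 windows (11.9%), and in 2.23% of the 21263 windows of protein-coding genes. The core TGACG was present in 26 of 42 windows (61.9%) and in 23.6% of all. By role, it was present in 13 of 17 windows of early transcription factors, 6 of 10 of inducible regulators and 7 of 15 of late effectors. The CArG box, the motif of SRF, was found in 4 windows of Egr2, some of which overlap, and in the window of Dusp5, against 1.52% of all windows. The AP-1 motif TGANTCA was found in 1 window of Bdnf (2.38%, against 6.99%) and TATAAA in 6 windows (14.3%, against 12.6%). Windows with at least 4 runs of 3 or more G, spaced by 1 to 7 bases on either strand, numbered 13 (31.0%, against 22.0%). The windows had a median GC content of 62.2% and a median ratio of observed to expected CpG of 0.751, where all windows had 56.3% and 0.567. These matches describe letters and show no binding of the named factors.

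ATRX peaks were denser at activity-regulated genes than over protein-coding genes as a whole. On the 1.02 Mb of these genes and their flanks, the control list had 97.1 peaks per Mb (95% Poisson interval 78.9 to 118) and the MICAL1-FL list 84.3 (67.4 to 104). Over all 21887 protein-coding genes, counted the same way, the densities were 45.9 and 42.5 peaks per Mb, so that the activity-regulated genes lay 2.12 and 1.98 times higher. A control peak was present at 36 of 39 genes, where 64.0% of all protein-coding genes had one, and a MICAL1-FL peak at 33, where the background was 61.2%. Both lists had a peak at 30 of 39 genes (76.9%, background 48.2%), and no gene of the set was without a peak in both. Intervals here and below cover counting error alone, and neighbouring peaks of a gene are not independent.

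**Figure D1:**
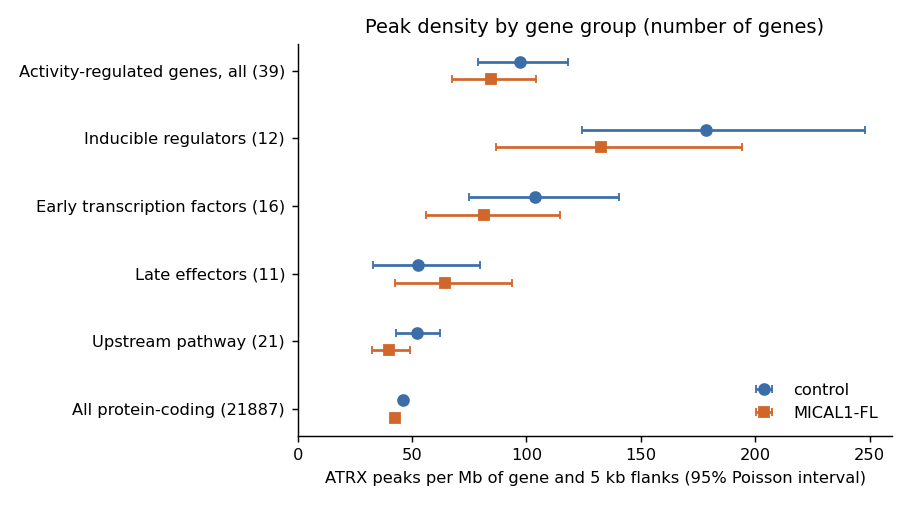
Peaks per Mb of gene and 5 kb flanks (horizontal axis) in the control list (circles) and the MICAL1-FL list (squares), with 95% Poisson intervals as bars and the number of genes in brackets. Among the roles, inducible regulators were the densest at 178 and 132 peaks per Mb. Late effectors at 52.5 and 64.5 were the role nearest to all protein-coding genes at 45.9 and 42.5. The upstream pathway row, 21 signalling genes that act before this set, lay nearer still at 52.0 and 40.0.

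The density differed between the roles, which also differ in gene length, and role and length were not separated. Inducible regulators, with a median span of 4.28 kb, had 178 control peaks per Mb (124 to 248) and 132 MICAL1-FL peaks per Mb (86.5 to 194). Early transcription factors, with a median span of 7.57 kb, had 104 (74.8 to 140) and 81.5 (56.1 to 114). Late effectors, with a median span of 11.6 kb, had 52.5 (32.9 to 79.5) and 64.5 (42.5 to 93.8). The intervals of inducible regulators and late effectors were apart in the control list and met in the MICAL1-FL list.

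Among genes of like span, the shorter activity-regulated genes stood higher. The 14 genes under 5 kb had 197 control peaks per Mb (138 to 272) and 137 MICAL1-FL peaks per Mb (88.4 to 202), where the 5034 protein-coding genes of that span had 42.1 and 37.0. The 14 genes of 5 to 15 kb had 129.9 and 89.1, against 46.4 and 41.0. The 11 genes of 15 kb or more had 49.4 (32.8 to 71.3) and 65.2 (45.9 to 89.9), against 46.1 and 43.0, and the control interval held the background value. Promoter composition went with peaks too. Over all windows, the share with a control peak within 1 kb of the start was 11.5% at a CpG ratio under 0.4 and 37.9% at 0.8 or more. Of the activity-regulated windows 19 had a ratio of 0.8 or more, and 31.6% of them had a control and 52.6% a MICAL1-FL peak there, against 37.9% and 36.0% of all such windows. At 0.4 to 0.8 the 21 activity-regulated windows gave 42.9% and 33.3%, against 30.1% in either list. Only 2 activity-regulated windows, both of Bdnf, had a ratio under 0.4, and the share was 50% in each list, against 11.5% and 10.1%. So the shares at starts lay below the background only for control peaks at 0.8 or more, and above it elsewhere, on few windows. The 21 windows include several each of Egr2 and Bdnf, some of which meet the same peak, so they are not independent. Among genes under 5 kb with a window at 0.4 or more, 11 activity-regulated genes had 208 and 146 peaks per Mb, and all 1399 such genes 65.8 and 59.7. Other properties of these genes, such as their transcription in the cultures or the number of reads that map to them, were not measured here.

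Peaks at these genes were shallow, as in the rest of the lists. A depth in fragments at each summit was recovered from the authors' fold, which is the ratio of ChIP over background at the summit, and p. The 99 control peaks were 4 to 9 fragments deep with a median of 5, and the 86 MICAL1-FL peaks 4 to 9 with a median of 6, where the median of either full list was 5. At most 6 fragments lay under 76.8% of control and 64.0% of MICAL1-FL peaks of the set, against 83.3% and 85.8% of all peaks. No peak of the set reached a q-value below 0.05, the lowest being 0.182 for control and 0.139 for MICAL1-FL peaks. In the full lists 466 (0.416%) and 402 (0.380%) peaks did. At shares this low, their absence among 99 and 86 peaks does not set these genes apart. With peaks this shallow, one found in 1 list alone does not show that ATRX is absent at that place in the other library.

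**Figure D2:**
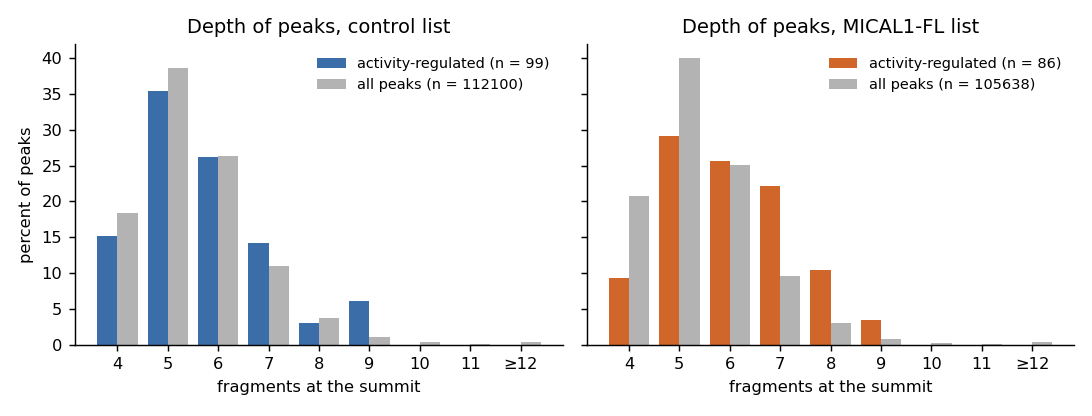
Share of peaks (vertical axis, percent) by recovered depth at the summit in fragments (horizontal axis), for peaks at activity-regulated genes (coloured) and all peaks of the list (grey). Peaks of the set lie between 4 and 9 fragments, and those of the MICAL1-FL list are at most 6 fragments deep in 64.0%, against 85.8% of all its peaks.

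The number of peaks per gene was compared between the lists. The MICAL1-FL list had 0.869 times as many peaks as the control list at these genes (exact binomial interval 0.643 to 1.17), and 0.927 times as many over all protein-coding genes. The ratio was 0.786 (0.483 to 1.27) for early transcription factors, 0.743 (0.429 to 1.27) for inducible regulators and 1.23 (0.673 to 2.26) for late effectors. All 3 intervals include the ratio of all genes. More control than MICAL1-FL peaks were found at 20 genes (51.3%, background 35.1%) and the reverse at 13 (33.3%, background 28.7%), with equal numbers at 6. Of all protein-coding genes 7690 had more control peaks, 6285 more MICAL1-FL peaks and 7912 equal numbers. The last include 5021 genes without any peak, a kind absent from the set, so these shares and their background are not on a like footing. Among the 24 genes with 4 or more peaks in all, 7 had at least 2 times as many control peaks (29.2%, background 22.1%) and 5 at least 2 times as many MICAL1-FL peaks (20.8%, background 16.1%). Every interval for the ratio of a single gene included 1 where both lists had a peak. Across the 39 genes the peak numbers of the lists had a Spearman correlation of 0.246 and a Pearson correlation of 0.285. Per length of gene and flanks the Spearman value was 0.390. The genes share their 2 libraries and differ in length, and no p is given.

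**Figure D3:**
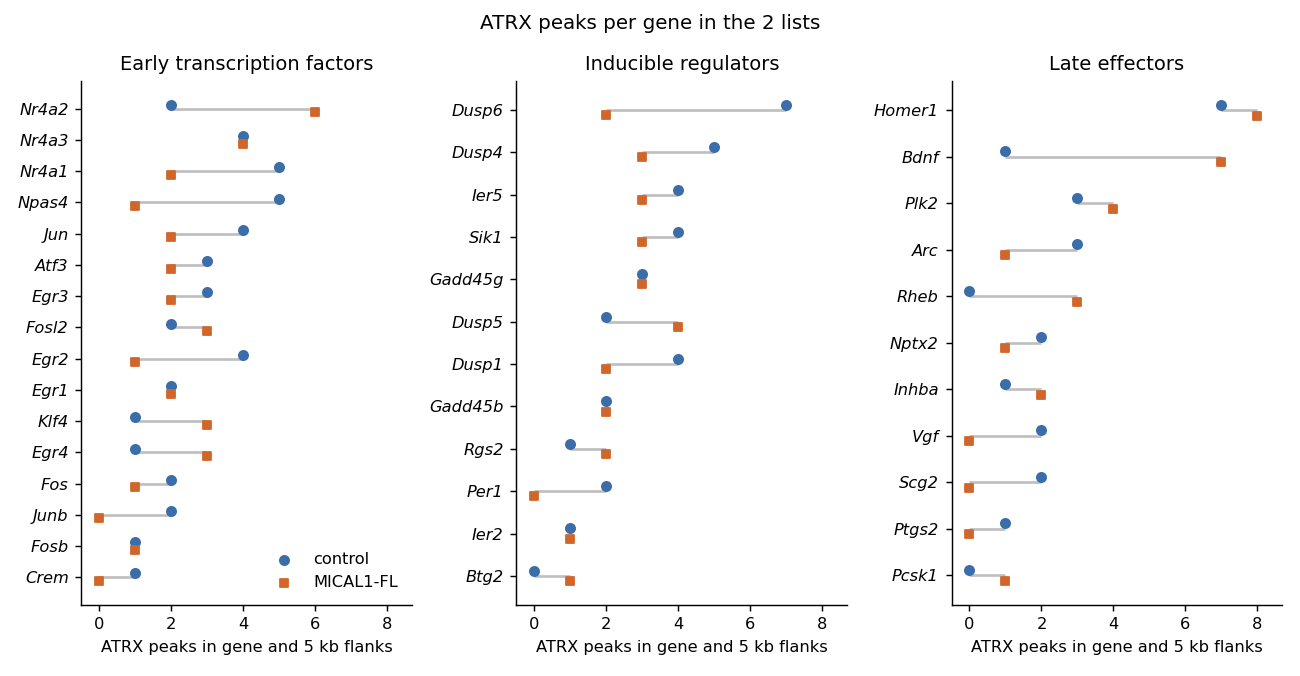
Number of peaks in the gene and 5 kb flanks (horizontal axis) at each of the 39 genes in the control (circles) and MICAL1-FL (squares) list, by role, joined by a line. Dusp6 (7 and 2) and Bdnf (1 and 7) lie farthest apart, and Homer1, the longest gene, has the most peaks in all (7 and 8).

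Early transcription factors carried 42 control and 33 MICAL1-FL peaks, and 16 and 14 of the 16 genes had at least 1. The Nr4a genes encode orphan nuclear receptors that neurons induce on firing. Nr4a1 had 5 control peaks, with the highest fold, 3.81 at a depth of 9 fragments, on chromosome 15 from 101253870 to 101254678, with its summit 12586 bases upstream of the listed start but inside the annotated span of the gene. Its control start peak had a fold of 2.11 and a summit 621 bases upstream, while its MICAL1-FL start peak had a fold of 3.43 and a summit 248 bases downstream, and these did not overlap. Nr4a2 had 2 control and 6 MICAL1-FL peaks (ratio 3.0, 0.536 to 30.4), and 1 of the latter, with a fold of 2.68, covered part of the promoter printed above, its summit lying 279 bases downstream of the start and inside a further annotated gene. Nr4a3 had 4 peaks in each list, of which 1 pair overlapped by 37 bp at 1274 and 1501 bases downstream of the start, with folds of 2.29 and 3.06.

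Npas4, a factor of the bHLH-PAS family whose induction depends on calcium and which regulates inhibitory synapses, had 5 control peaks and 1 MICAL1-FL peak (ratio 0.200, 0.0042 to 1.79). That peak, on chromosome 19 from 4989303 to 4989791, overlapped a control peak by 425 bp, and the summits lay 284 and 303 bases downstream of the start, 19 bases apart. Their depths were 4 and 6 fragments. Klf4, a zinc finger factor, had 1 control and 3 MICAL1-FL peaks, and 1 pair overlapped by 161 bp at 2313 and 1738 bases downstream of the start. Together with Nr4a3 these were the 3 early transcription factors at which the lists overlapped.

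The Egr genes encode zinc finger factors of the immediate early response. Egr4 had 1 control peak with a fold of 2.22 and 3 MICAL1-FL peaks, of which that at the start was the tallest of the set in its list, with a fold of 3.81, a depth of 9 fragments and a q-value of 0.139. It covered chromosome 6 from 85513299 to 85513902, with the summit 86 bases downstream of the start, and took in the whole promoter window printed above. No control peak lay within 1 kb of that start. Egr1 had 2 peaks in each list, with highest folds of 2.29 and 2.61, and a peak within 1 kb of a gene end in both. Egr2, which also directs myelination in Schwann cells, had 4 control peaks, of which 2 lay 434 and 451 bases downstream of listed starts. Its 1 MICAL1-FL peak lay 9332 bases downstream of a start, in the flank, with its summit inside the gene Ado. Egr3 had 3 and 2 peaks, with highest folds of 2.38 and 3.35.

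The Fos and Jun genes encode partners of the AP-1 dimer. Fos, the gene most used to mark active neurons, had 2 control peaks with summits 3698 bases upstream and 6683 bases downstream of its start, and 1 MICAL1-FL peak 1479 bases upstream, so none lay within 1 kb. Fosb had 1 peak in each list and Fosl2 had 2 and 3, again none within 1 kb of the start. Jun had 4 control and 2 MICAL1-FL peaks, and the start peaks, with summits 580 bases downstream and 660 bases upstream, did not overlap. Junb had 2 control peaks, 1 of them with a summit 213 bases downstream of the start, and no MICAL1-FL peak.

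Atf3, a stress- and activity-induced factor of the CREB/ATF family, had 3 control and 2 MICAL1-FL peaks. Its control peak on chromosome 1 from 191183433 to 191183748, with a fold of 2.29 and a depth of 5 fragments, was the one peak of the set whose summit lay within a 300-base promoter window, 206 bases upstream of the start. The MICAL1-FL start peak of Atf3 had its summit 1179 bases upstream and did not overlap it. Crem, which encodes activators and the inducible repressor ICER, had 1 control peak and no MICAL1-FL peak, and its span is one of the longest of the set. The control peak lay within 1 kb of a gene end, with its summit outside the span.

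Inducible regulators carried 35 control and 26 MICAL1-FL peaks, and most overlapping pairs of the lists lay at these genes. Of the 20 pairs in the whole set, 14 lay here, 3 at early transcription factors and 3 at late effectors. Of the control peaks at inducible regulators, 14 of 35 overlapped a MICAL1-FL peak (40.0%, Clopper-Pearson interval 23.9 to 57.9), against 3 of 42 at early transcription factors (7.14%, 1.5 to 19.5) and 3 of 22 at late effectors (13.6%, 2.91 to 34.9). For all 39 genes the share was 20 of 99 (20.2%, 12.8 to 29.5), and for all protein-coding genes 8.06%. These shares depended on the definition of a match. Among peaks with p of 0.01 or less, 7 of 71 control peaks of the set overlapped (9.86%, 4.06 to 19.3), against 6.69% at all protein-coding genes, which lies within the interval. By role these were 6 of 23 at inducible regulators (26.1%, 10.2 to 48.4) and 1 of 35 at early transcription factors (2.86%, 0.0723 to 14.9). At late effectors they were 0 of 13 (interval up to 24.7), and the intervals of the roles met. With summits within 250 bp as the match, the share was 10 of 99 (10.1%, 4.95 to 17.8), against 5.12%. Under that match inducible regulators (5 of 35, 14.3%) and late effectors (3 of 22, 13.6%) had like shares. The genes at which overlapping peaks were found numbered 8 of 12, 3 of 16 and 2 of 11, together 13 of 39 (33.3%, background 14.8%). Denser peaks meet more often by position alone, and the part of density in this share was not tested.

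The Dusp genes encode phosphatases that switch off MAP kinases. Dusp6, which acts on ERK, had the most control peaks of its group, 7, and 2 MICAL1-FL peaks (ratio 0.286, 0.0290 to 1.5). Per 10 kb of gene and flanks these were 4.91 and 1.4 peaks, the first the highest control value of the set. The wide MICAL1-FL peak of 1078 bp, with a fold of 3.23, overlapped 2 control peaks upstream of the start, with folds of 1.91 and 1.85. Dusp1 had 4 control and 2 MICAL1-FL peaks, and both of the latter overlapped control peaks. The pair nearest the start covered chromosome 17 from 26507942 to 26508319 and from 26508019 to 26508388, with folds of 2.59 and 2.42, depths of 6 and 7 fragments and summits 475 and 230 bases downstream of the start. Dusp4 had 5 and 3 peaks with 2 overlapping pairs, and that at a gene end on chromosome 8, with folds of 3.51 and 2.69 and depths of 9 and 8 fragments, overlapped by 515 bp. Dusp5 had 2 and 4 peaks, none within 1 kb of the start, and no overlap.

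Gadd45g, a stress-response gene of the family known for roles in DNA demethylation, had 3 peaks in each list, and all of them overlapped a peak of the other. The pair nearest upstream of the start was among the tallest of the set, with folds of 3.81 and 3.32, both at a depth of 9 fragments, and with summits 778 and 1086 bases upstream of the start. The pair in the gene overlapped by 34 bp and the pair farthest upstream by 6 bp. From upstream to downstream the summits of the 3 pairs lay 429, 308 and 956 bases apart. None of them met the match of summits within 250 bp. Gadd45b had 2 peaks in each list, none overlapping and none within 1 kb of the start.

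The immediate early genes Ier2 and Ier5 encode nuclear proteins. Ier2 had 1 peak in each list, on chromosome 8 from 84661669 to 84662180 and from 84661011 to 84662261, and the control peak lay wholly within the MICAL1-FL peak. Their folds were 2.81 and 2.85 and their depths 7 and 8 fragments. Ier5 had 4 and 3 peaks, with 2 overlapping pairs. Rgs2, which shortens signalling by G proteins, had 1 control peak with a fold of 3.81 and a depth of 9 fragments that lay 1317 bases downstream of the start, and it overlapped 1 of 2 MICAL1-FL peaks over its whole 339 bp. Sik1, a kinase that restrains CREB coactivators, had 4 and 3 peaks with 1 overlapping pair. Btg2, an antiproliferative gene, had no control peak and 1 MICAL1-FL peak, which took in the whole promoter window printed above with its summit 154 bases downstream of the start. The clock gene Per1 had 2 control peaks, 1 of them with a summit 1042 bases downstream of a start, and no MICAL1-FL peak.

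Late effectors carried 22 control and 27 MICAL1-FL peaks. Bdnf, the neurotrophin transcribed from several alternative promoters, had 1 control and 7 MICAL1-FL peaks (ratio 7.0, 0.899 to 315), the widest gap between the lists in its group. The control peak, with a fold of 3.05 and a depth of 7 fragments, lay on chromosome 2 from 109676364 to 109676646, with the summit 543 bases upstream of a listed start. The MICAL1-FL peaks had folds from 2.43 to 3.44 and depths of 6 to 8 fragments, and none overlapped the control peak. Of them, 4 lay within 1 kb of listed starts. MICAL1-FL peaks covered 1 of the 7 promoter windows of Bdnf wholly and 1 in part.

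Homer1, which encodes a scaffold of the postsynaptic density and a short inducible form that competes with it, had 7 control and 8 MICAL1-FL peaks over 111 kb of gene and flanks, or 0.629 and 0.718 per 10 kb. Overlapping pairs were found 25035 and 65198 bases downstream of the start in the control list, with summits 91 and 162 bases from those of the MICAL1-FL list. Arc, whose protein trims AMPA receptors from synapses, had 3 control peaks and 1 MICAL1-FL peak. The latter, on chromosome 15 from 74670970 to 74671233, lay wholly within a control peak in the gene, and the summits were 72 bases apart at depths of 4 and 5 fragments. Plk2, a kinase known for homeostatic weakening of synapses, had 3 and 4 peaks, or 1.9 and 2.53 per 10 kb, with no overlap.

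Rheb, the GTPase that activates mTORC1, had no control peak and 3 MICAL1-FL peaks, the highest with a fold of 3.06, none within 1 kb of its start. Nptx2, a secreted pentraxin that gathers AMPA receptors, had 2 control peaks with folds of up to 1.97 and 1 MICAL1-FL peak with a fold of 3.06. The secreted and secretory-pathway genes Vgf and Scg2 had 2 control peaks each and no MICAL1-FL peak, and Pcsk1, a prohormone convertase, had 0 and 1. Ptgs2, which encodes cyclooxygenase-2, had 1 and 0, and Inhba, a subunit of activin, had 1 and 2. At counts this low the difference between the lists at a single gene was not beyond counting error.

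**Figure D4:**
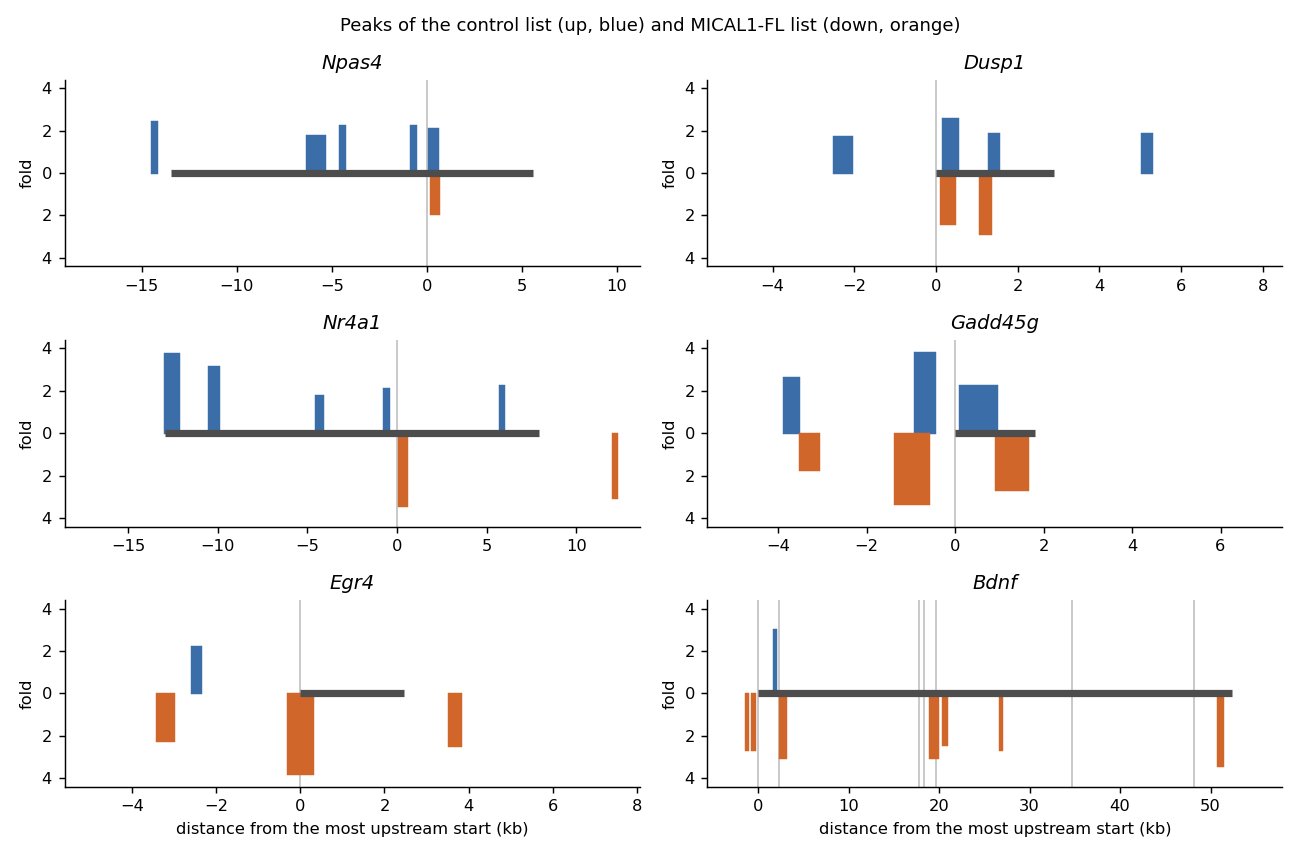
Peaks at 6 genes by distance in kb from the most upstream listed start (horizontal axis), with the authors' fold as bar height, upward for the control and downward for the MICAL1-FL list. The dark line is the gene span and grey lines are listed starts, and at Npas4 and Dusp1 peaks of both lists stand just downstream of the start while at Egr4 a MICAL1-FL peak with a fold of 3.81 stands there alone.

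Start peaks, those within 1 kb of a listed start or, for the 9 genes without one, of either gene end, were compared with all protein-coding genes. The control list had one at 19 of 39 genes (48.7%, 32.4 to 65.2, background 27.0%) and the MICAL1-FL list at 20 (51.3%, 34.8 to 67.6, background 25.9%). Both lists had one at 13 genes (33.3%, background 11.5%), while 6 had one among control peaks alone and 7 among MICAL1-FL peaks alone. Among inducible regulators 8 of 12 genes had one in each list and 7 in both. For early transcription factors they were 8 and 9 of 16 with 5 in both, and for late effectors 3 and 3 of 11 with 1, Bdnf, in both. Among the 30 genes with a listed start, the counts were 12 in the control list (40.0%, background 25.8%), 15 in the MICAL1-FL list (50%, background 24.9%) and 9 in both (30.0%, background 10.8%).

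Around the starts, summits at activity-regulated genes were spread over several kb. Of 76 control summits at the 30 genes with a listed start, 13 (17.1%, 9.43 to 27.5) lay within 1 kb of one, 14 from 1 to 5 kb upstream and 19 from 1 to 5 kb downstream. Of 73 MICAL1-FL summits these were 15 (20.5%, 12 to 31.6), 17 and 15. Over all protein-coding genes with a listed start, 10.5% and 10.7% of summits lay within 1 kb, and 75.7% and 75.5% beyond 5 kb. Beyond 5 kb the activity-regulated genes had 39.5% and 35.6%. These genes are also shorter, and the part of gene length in the shares within 1 kb and beyond 5 kb was not tested. Few of the 300-base promoter windows held a peak, in this set as over all windows. A control peak overlapped 1 of 42 windows (2.38%, 0.0603 to 12.6), where 10.3% of all windows had one. A MICAL1-FL peak overlapped 5 (11.9%, 3.98 to 25.6), where the share was 10.6%. Both intervals hold the share of all windows. A summit lay in 1 and 0 windows, against 3.40% and 3.52% of all. A count of 0 of 42 allows a share of up to 8.41% by the exact interval, so the summit counts did not differ from the background beyond counting error.

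**Figure D5:**
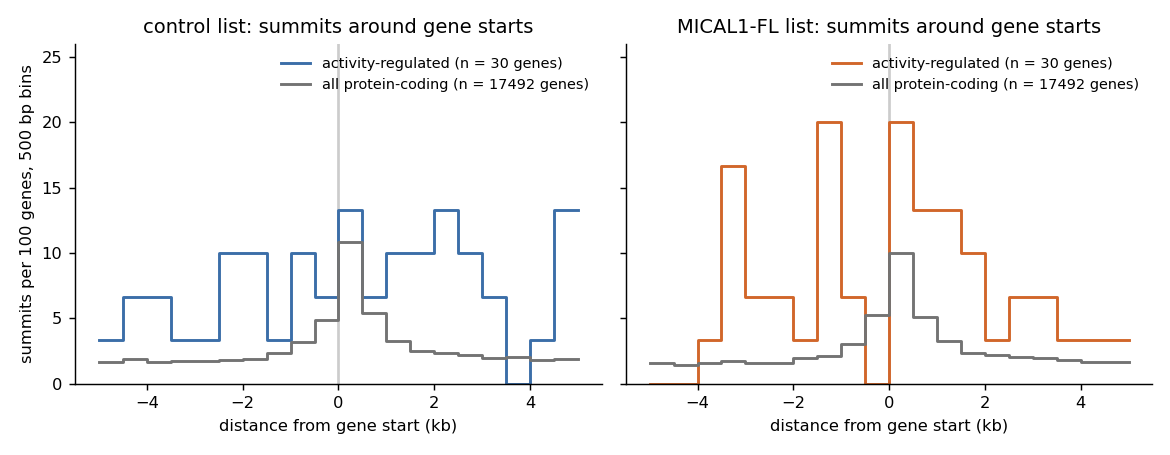
Summits per 100 genes in bins of 500 bp (vertical axis) by distance from the first listed start (horizontal axis), for the 30 activity-regulated genes with a listed start (coloured) and 17492 protein-coding genes (grey). The grey line peaks in the 500 bp after the start, while the coloured line, which rests on 0 to 6 summits per bin, lies above it in most bins and falls to 0 in others, among them the MICAL1-FL bin just upstream of the start.

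The signalling genes that act before the activity-regulated genes gave a comparison within the same pathway. The list held 21 genes of CREB, SRF and MEF2 signalling, with a median span of 65.9 kb. They had 121 control and 93 MICAL1-FL peaks, or 52.0 (43.2 to 62.2) and 40.0 (32.3 to 49.0) per Mb, which is 1.13 and 0.941 times the density of all protein-coding genes. The peaks of the lists overlapped at 4 of the 21 genes, where 14.8% of all protein-coding genes had such peaks. Of control peaks 4.13% were involved (1.36 to 9.38), against 8.06% at all protein-coding genes, which lies within the interval. A start peak was present at 7 genes in the control list (33.3%, background 27.0%), 8 in the MICAL1-FL list (38.1%, background 25.9%) and 4 in both (background 11.5%). Most peaks over both lists were found at the calcineurin subunit gene Ppp3ca (30 and 14), the kinase gene Camk4 (17 and 13) and Mef2c (7 and 14). Elk1 had none. The intervals of these genes and of the 39 activity-regulated genes were apart in both lists, though the signalling genes are far longer.

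Over the whole series, the genes of the profiled protein and of the introduced one gave few peaks. Atrx had 1 peak in each list over its 132 kb, and Mical1 had 2 control peaks and 1 MICAL1-FL peak. Neither number checks the insert. Of the 185 peaks at activity-regulated genes, 2 had a summit inside another protein-coding gene.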

How the data were processed

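Peak lists of 2 ATRX ChIP libraries, control (mCherry) and MICAL1-FL, were used, grouped by sample title. The input sample was not analysed here. The submitters' processing notes name ChIPseeker 1.26.2, MACS 1.4.2, SAMtools 1.9 and Bowtie 1.3.0 without their roles. Neither the calling threshold nor the build is given in the sources used here, nor which input stood against the MICAL1-FL library. The fold (a ratio over background), the -log10 p-value and q-value and the score, as deposited, are those of the authors' peak caller, and the score was the whole part of 10 times the -log10 p for every peak. The largest p was 0.0498 and 0.0496. How the input was scaled per list is not given, so folds describe peaks within a list.

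Depth was recovered by reading the fold as (pileup + 1) / (background + 1) and each p as a Poisson tail above the pileup, which gave a whole pileup (within 0.05 of the -log10 p) for 99.95% and 99.97% of peaks. This is an inference. The lowest background was 1.62 fragments in both lists.

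Gene spans, starts and promoter sequences came from RefSeq tables of GRCm38.p6. The build was read from the data: summits within 500 bp of starts were 4.34 and 4.67 times as many per bin as at 3.5 to 5 kb. All 39 genes matched by symbol, 30 with a listed start. A peak counted by an overlap of at least 1 bp with the gene and 5 kb flanks, each once. Poisson, conditional binomial and Clopper-Pearson intervals are exact at 95%, with Python 3.11.15 and scipy 1.17.1. Counting matched a brute-force search in 500 of 500 simulated queries, and depth was recovered for 100% of 5000 simulated peaks.

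The genes and lists were chosen with earlier results of these data known. Described most fully are genes with overlapping peaks, with start peaks in both lists, or among the 3 of their role with the most peaks or highest fold, ties kept (23 genes). The classes of span and CpG were added after seeing the data.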

Additional observations from a re-analysis of the deposited data

How the results depend on the processing

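With 1 library per condition nothing could be left out, and no paired analysis was possible because each condition has a single library. The densities over those of all protein-coding genes, 2.12 and 1.98, stayed between 1.97 and 2.22 in the control list and between 1.85 and 2.33 in the MICAL1-FL list with no flank, a flank of 10 kb, summits in the window, p of 0.01 or less, without Homer1 and with genes of a listed start alone. The ratio of peak numbers lay between 0.848 and 0.972 in the same settings, within its counting interval. The peaks themselves numbered 59 and 55 with no flank, since fewer bases were counted. The share of control peaks that overlap a MICAL1-FL peak depended on the definition: it was 10.1% with summits within 250 bp, 42.4% when a gap of up to 1 kb was allowed and 9.86% among peaks with p of 0.01 or less, where all protein-coding genes gave 5.12%, 19.5% and 6.69%. With starts within 500 bp, 13 genes had a MICAL1-FL start peak and 7 one in both lists, and within 3 kb 30 had a control start peak and 23 one in both lists. The shares of all protein-coding genes with these windows are not given here. A wider window takes in more peaks at any gene, so these counts do not show whether the difference from the background holds. Among the genes with a listed start alone, 12 had a control start peak (40.0%, background 25.8%). The settings without Homer1 and with listed starts alone were chosen after seeing the data. Peaks of 4 to 9 fragments limit what single genes can show.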
